A study of Mus musculus with 8 samples.

Results

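Small nucleolar RNA (snoRNA) genes were taken as the rows of the count files whose symbol starts with Snora or Snord and whose counts, summed over the 8 libraries, reached 10. Of 27710 gene rows, 53 had such a symbol and 32 reached the minimum: 20 of box C/D (Snord) and 12 of box H/ACA (Snora). The members were thus chosen by their summed counts, which are given as a description only. Just inside the minimum were Snord71 with 10 counts and Snord11 with 11, and just outside it were Snord65 and Snord88c with 9 each. Of the 21 symbols left out, 2 had no count in any library.

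The libraries came from total RNA of mouse lineage-depleted bone marrow, the stem and progenitor cells that stay after mature blood cells are removed, cultured with cytokines. There were 4 wild-type (WT) libraries and 4 of the strain labelled Vav-iCre+; Alkbh5fl/fl, called Alkbh5-deficient here, in which a recombinase driven by the Vav promoter of blood cells removes the floxed gene for ALKBH5, an enzyme that takes methyl groups off adenosines in RNA. Per genotype, 3 libraries are of cells that received 4-thiouridine (s4U), a uridine analogue that is built into new RNA, at 100 µM for 2 h, and 1 library, called unlabelled, has no agent in its label. All were made by TimeLapse-seq, in which a chemical treatment recodes s4U so that it reads as another base, with a stranded total RNA kit. The WT libraries carry no Cre in their labels, ages are not given, and the labels do not say whether replicates came from separate animals or cultures, so p-values measure only the spread between these libraries, which may be technical.

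The libraries held between 5723245 and 8615997 gene counts. Alkbh5 had 1061 to 1479 counts in the 4 WT libraries and 0 or 1 in the 4 Alkbh5-deficient libraries, which matches the labels. Progenitor markers were present throughout, Kit for example at 72.0 to 95.1 CPM (counts per 1000000 gene counts, scaled by TMM). WT fed replicate 3 was unlike the rest. Protein-coding genes took 778887 of each 1000000 gene counts there, against 840167 to 878840 in the others. It was the lowest or tied lowest library in 24.0% of the 14232 genes tested, the largest share of any library. The libraries numbered 1 of both fed groups stood apart in other ways. Reads in no annotated gene were 38.3% of all counts in WT fed replicate 1 and 37.6% in Alkbh5-deficient fed replicate 1, against 48.9% to 52.1% in the other 6. The stromal markers Col1a1 and Col1a2 together had 4.15 and 4.92 CPM there against 294 to 1833. The erythroid markers Hba-a1, Hbb-bt and Hbb-bs summed to 38.6 and 36.5 CPM against 46.3 to 108, while the T cell markers Cd3e and Cd3g summed to 5.06 to 17.8 CPM over the 8 libraries, with both libraries numbered 1 inside the range of the others. In such bulk samples, fewer cells of a type and less RNA per cell cannot be told apart.

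snoRNAs are short nuclear RNAs that pair with ribosomal and small nuclear RNAs and direct their modification. Box C/D snoRNAs, named for 2 short motifs near their ends, guide methylation of the ribose with the methyltransferase fibrillarin. Box H/ACA snoRNAs, which end a few bases after an ACA, guide pseudouridylation with dyskerin. A few of either class, such as U3, U8, U14, U17 and U22, act in the cleavage or folding of the ribosomal RNA precursor. In mammals most are cut out of the introns of host genes, many of which encode ribosomal or nucleolar proteins.

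Of the 7 sequences below, Snord82 and Snora73a kept the largest shares of their level in the library lowest for snoRNAs, and Snord34 and Snord83b were nearly or wholly absent there. Snord17 is the longest box C/D member, Snora73b is a near copy of Snora73a, and Snord22 was counted only together with its host. Sequences are the GENCODE M21 transcripts on GRCm38, 5′ to 3′, with box C (TGATGA), box D (CTGA) or the ACA in capitals.
Snord82: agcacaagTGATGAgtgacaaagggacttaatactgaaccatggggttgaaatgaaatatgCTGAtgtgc
Snord34: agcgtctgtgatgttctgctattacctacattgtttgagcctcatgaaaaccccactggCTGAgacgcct
Snord83b: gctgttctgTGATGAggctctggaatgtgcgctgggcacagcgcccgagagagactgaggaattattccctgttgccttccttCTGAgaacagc
Snord17: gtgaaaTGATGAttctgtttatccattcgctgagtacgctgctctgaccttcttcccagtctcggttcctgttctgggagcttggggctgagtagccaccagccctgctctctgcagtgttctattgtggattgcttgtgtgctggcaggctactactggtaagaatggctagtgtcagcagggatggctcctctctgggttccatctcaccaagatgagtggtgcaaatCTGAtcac
Snord22: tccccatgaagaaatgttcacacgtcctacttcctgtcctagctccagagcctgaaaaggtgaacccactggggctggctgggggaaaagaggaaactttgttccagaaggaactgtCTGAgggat
Snora73a: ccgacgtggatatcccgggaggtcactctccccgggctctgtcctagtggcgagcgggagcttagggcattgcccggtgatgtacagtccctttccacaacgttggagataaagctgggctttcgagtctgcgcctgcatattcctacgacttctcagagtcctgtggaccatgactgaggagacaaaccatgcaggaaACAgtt
Snora73b: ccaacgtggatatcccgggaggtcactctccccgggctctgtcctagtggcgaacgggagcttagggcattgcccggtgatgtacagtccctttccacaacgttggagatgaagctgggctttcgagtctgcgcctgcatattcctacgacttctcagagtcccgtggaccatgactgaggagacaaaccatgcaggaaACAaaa

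On GRCm38, Snord82 lies in nucleolin (Ncl) at chr1:86356261-86356330 and Snord34 in Rpl13a at chr7:45126601-45126670, both on the minus strand. Snord83b lies in Rpl3 at chr15:80078498-80078591, and Snord17 in Snx5 at chr2:144265979-144266216, again on the minus strand. Snora73a at chr4:132352775-132352979 and Snora73b at chr4:132352322-132352526 lie within the span of Rcc1 on the minus strand. Snord22 lies at chr19:8725866-8725991 on the plus strand, in Snhg1.

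The members carried the motifs of their class. The forward strand of each transcript was searched for TGATGA within the first 20 bases, CTGA within the last 15 and ACA beginning exactly 6 bases from the end. TGATGA was found in 15 of 20 box C/D members, in 0 of 12 box H/ACA members and in 0.700% of the 141767 annotated transcripts. CTGA was found in 20 of 20, 2 of 12 and 7.11%. ACA was found in 0 of 20, 10 of 12 and 2.45%, Snora17 and Snora43 being the exceptions among the box H/ACA members. Box C/D members were 68 to 238 bases long (median 82) and box H/ACA members 127 to 205 (median 137).

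The host was taken as the gene that contains the snoRNA on the same strand, a protein-coding one where there was one. Most members lay within a host gene: 18 of 20 box C/D and 9 of 12 box H/ACA. Snord13, Snord104, Snora17, Snora43 and Snora57 had none. Hosts of 7 box C/D members and 1 box H/ACA member were ribosomal protein genes. Rpl13a alone carried Snord32a, Snord34 and Snord35a, which share only 53.1% to 59.5% of aligned positions. The distance to the next exon of the host was 63 to 3954 bases for box C/D members (median 86.5, 13 of 18 between 50 and 100) and 68 to 685 for box H/ACA members (median 130, 3 of 9 between 50 and 100).

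snoRNA genes took few of the counts: 5038 of 58341325, or 0.00864%, of which box C/D genes had 2934 and box H/ACA genes 2104. The 3 most abundant members held 42.7% of them and the 8 most abundant 73.7%. The depth was low for most, since 13 members had under 50 counts over all libraries and 15 had a count in each of the 8. Averaged over 8 libraries, Snora73a (14.1 CPM), Snord17 (11.7), Snora73b (11.5) and Snord34 (7.79) led. Per kilobase of RNA the order changed, and mean levels were 111 CPM per kb for Snord34, 75.2 for Snord87, 68.8 for Snora73a, 65.6 for Snord82 and 56.2 for Snora73b. The median level per kb was 13.1 in box C/D and 6.16 in box H/ACA.

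The snoRNA level varied more between libraries of a group than between groups, and it was lowest in WT fed replicate 1. Summed over box C/D genes, the levels as CPM of gene counts were 60.1 in the WT unlabelled library, 8.05, 61.3 and 69.5 in WT fed replicates 1 to 3, 48.4 in the unlabelled Alkbh5-deficient library, and 30.3, 60.6 and 60.8 in Alkbh5-deficient fed replicates 1 to 3. Summed over box H/ACA genes they were, in that order, 38.6, 10.6, 41.2, 64.8, 38.1, 21.2, 39.5 and 36.1. In both classes the 2 libraries numbered 1 were the lowest, and WT fed replicate 3 was the highest. In WT fed replicate 1 the 95% exact binomial interval, which like the others covers counting error only, ran from 5.99 to 10.6 for box C/D and from 8.19 to 13.4 for box H/ACA.

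The group means lay within that spread. For box C/D they were 46.3 ± 33.4 CPM in WT fed libraries (SD, n = 3) and 50.5 ± 17.6 in Alkbh5-deficient fed libraries (SD, n = 3). For box H/ACA they were 38.9 ± 27.2 and 32.3 ± 9.74. Box C/D genes made up 51.8% to 62.8% of snoRNA counts in 7 libraries. In WT fed replicate 1 their share was 43.2% (exact binomial interval 34.1% to 52.7%), the only library in which box H/ACA counts were the more numerous. That library held 51 box C/D and 67 box H/ACA counts, and 50 of the latter were from Snora73a.

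**Figure D1:**
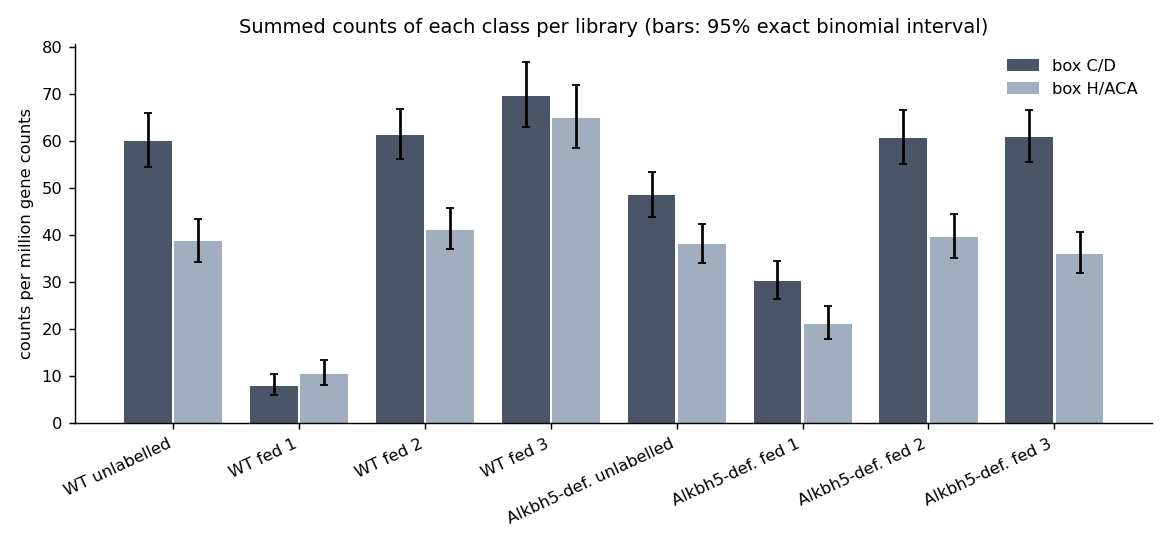
Summed counts of the 20 box C/D and 12 box H/ACA genes as CPM of gene counts (y axis) in each of the 8 libraries (x axis), with 95% exact binomial intervals. WT fed replicate 1 is the lowest in both classes (8.05 and 10.6), followed by Alkbh5-deficient fed replicate 1 (30.3 and 21.2).

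Among box C/D guides, Snord34, which guides methylation of ribosomal RNA, had 77 counts in the WT unlabelled library, 2, 80 and 50 in WT fed replicates 1 to 3, 75 in its Alkbh5-deficient counterpart and 33, 63 and 91 in the Alkbh5-deficient fed libraries. The matching levels were 9.96, 0.332, 9.20, 9.73, 8.15, 4.92, 8.61 and 11.4 CPM. The 6 libraries not numbered 1 thus lay between 8.15 and 11.4 CPM, while WT fed replicate 1 was at 3.51% of their median and Alkbh5-deficient fed replicate 1 at 52.0%. The genotypes overlapped. Snord87, encoded in the non-coding host Snhg6, had 7.76, 1.83, 7.02, 7.20, 6.74, 4.17, 8.61 and 9.01 CPM in the same order, with the same 2 libraries lowest.

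Snord82, from an intron of nucleolin, was among the members least reduced in WT fed replicate 1. It had 5.44, 3.16, 4.37, 5.45, 5.54, 2.68, 5.47 and 4.63 CPM, so that its lowest value was in Alkbh5-deficient fed replicate 1. Snord83b, from Rpl3, had 2.07, 0, 1.73, 3.11, 1.41, 2.24, 2.05 and 1.25 CPM. Its 0 in WT fed replicate 1 allows up to 3 counts (0.499 CPM), which is under every other library, and Alkbh5-deficient fed replicate 1 was not low. The other Rpl13a snoRNAs were also lowest in WT fed replicate 1: Snord32a was at 10.8% and Snord35a at 12.8% of the median of the 6 libraries not numbered 1.

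Among snoRNAs of precursor processing, the near-identical Snora73a and Snora73b (both U17, 96.6% identity over 205 bases) parted in 1 library. Snora73a had 99, 50, 137, 123, 107, 70, 121 and 107 counts in the library order above. Snora73b had 61, 7, 98, 150, 107, 57, 82 and 91. The ratio of Snora73a to Snora73b counts was 7.14 in WT fed replicate 1 and between 0.820 and 1.62 in the other 7. A total of 7 members (Snora5c, Snora17, Snora30, Snora41, Snora57, Snora73a and Snora73b) have a copy of at least 90% identity elsewhere in the annotation, so their counts are uncertain. Because the Snora73a and Snora73b sequences differ at few positions, and both lie over an exon on the opposite strand, the division of reads between them is uncertain. Snora73a also shares reads with Snhg3 on its own strand.

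Snord17, the longest box C/D member, had 8.80, 1.66, 16.3, 22.0, 10.3, 9.69, 12.8 and 12.0 CPM. It was high in WT fed replicates 2 and 3, and Alkbh5-deficient fed replicate 1 was within the range of the others. Snord13 (U13) had 11, 1, 14, 9, 8, 1, 7 and 3 counts, too few to order the groups. Snord118 (U8) had 3 counts in all and is not a member. U3 is listed under other symbols, and Rnu3a had 27.6, 1.33, 23.0, 37.5, 24.9, 15.2, 24.1 and 21.4 CPM, again lowest in WT fed replicate 1. Snord116 of the imprinted cluster is annotated in 17 copies, which have neither a row of their own nor a shared entry in the counts.

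The other abundant box H/ACA guides were sparser. Snora17, without a host, and Snora30, in Srcap, averaged 3.27 and 2.34 CPM over the 8 libraries. Snora62, in the ribosomal protein gene Rpsa, had 1.68, 0.166, 2.07, 1.95, 1.85, 1.04, 1.64 and 1.75 CPM, an even level outside the libraries numbered 1. Snora34, Snora78 and Snora43 averaged 0.828, 0.809 and 0.566 CPM. Among box C/D guides Snord55 had 3.88, 0.166, 4.49, 5.45, 1.96, 1.34, 3.28 and 2.25 CPM, and outside the libraries numbered 1 its WT values lay above the Alkbh5-deficient ones.

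**Figure D2:**
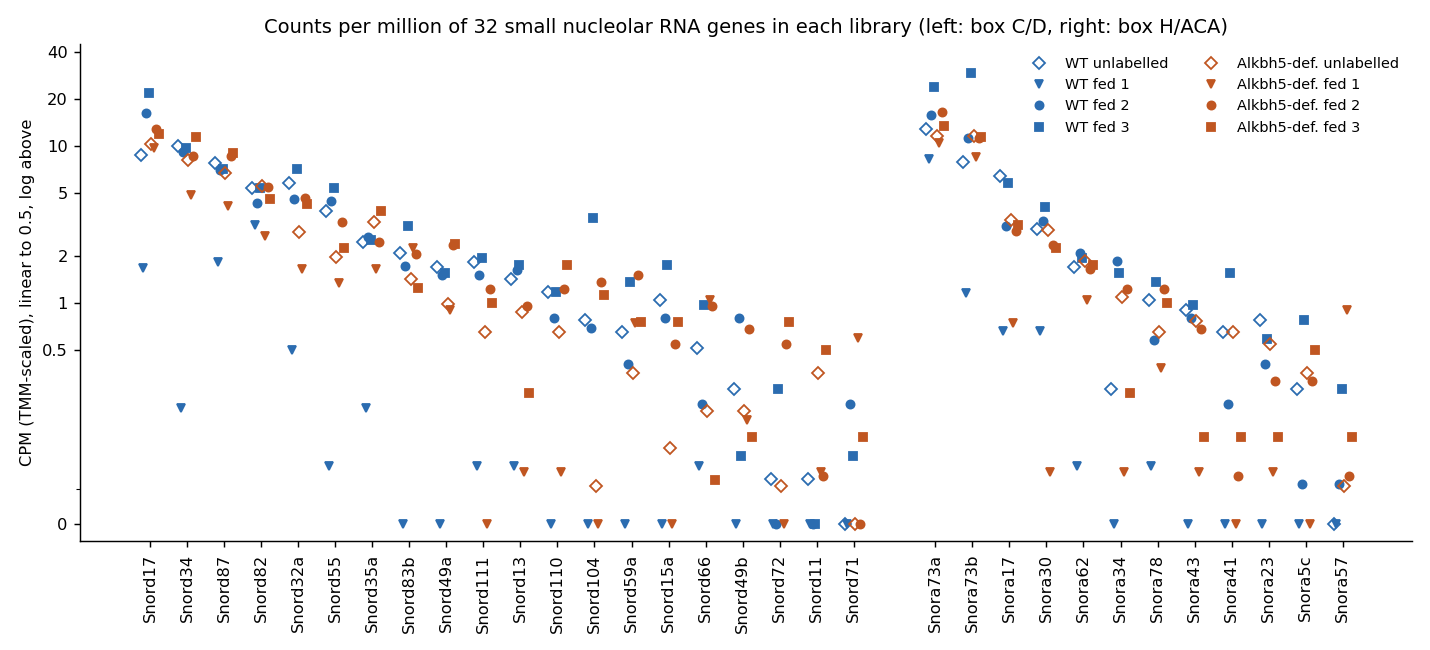
TMM-scaled CPM (y axis, linear to 0.5 and log above) of each of the 32 snoRNA genes (x axis, by class and count) in each library (1 symbol per library, colour by genotype, open symbols unlabelled). WT fed replicate 1 (blue triangles) is lowest or tied lowest in 27 of 32 genes.

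WT fed replicate 1 was the lowest or tied lowest of the 8 libraries in 27 of 32 members, against 14.9% of all 14232 genes tested, and 16 members had no count there. Alkbh5-deficient fed replicate 1 was lowest or tied lowest in 9 of 32, against 17.7% of all genes. The sets are unlike: the 14232 genes all passed a filter on low counts and only 18 of the 32 members did. Ties at 0 therefore weigh more among the members. Compared with the median of the 6 other libraries, the 8 most abundant box C/D genes stood at 0% to 58.0% in WT fed replicate 1 (median 11.8%) and the 8 most abundant box H/ACA genes at 0% to 57.0% (median 13.3%). In Alkbh5-deficient fed replicate 1 they stood at 35.4% to 118% (median 53.9%) and at 5.04% to 75.0% (median 33.4%). In this library Snora30, from an intron of Srcap, had 1 count against 17 to 29 in the 6 others. The genes Snord83b, Snord66, Snord59a, Snord11, Snord71 and Snora57 were at or above the median of the 6. Snord83b had 15 counts in this library, but the others of these had only 1 (Snord11) to 7 (Snord66), too few to set them apart. Over all genes tested, the median was 99.8% and 99.6% in the 2 libraries.

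As a set, the hosts did not share the low level. For the 26 members whose host had at least 100 counts, the snoRNA was lower than its host on this measure in 26 of 26 pairs in WT fed replicate 1 and in 21 of 26 in Alkbh5-deficient fed replicate 1. Those 22 hosts stood at 59.5% to 146% (median 105%) and at 57.8% to 153% (median 102%). Some hosts were low: 5 lay below the range of the other 6 libraries in WT fed replicate 1 and 6 in Alkbh5-deficient fed replicate 1. The lowest in both was Nop58 (59.5% and 57.8%). Rpl13a was at 111% and 123% of its median elsewhere while Snord34 within it was at 3.51% and 52.0%. Rpl3 was at 106% and 107%, and Snord83b within it at 0% and 118%. For Snora73a and Snora73b the host used was the protein-coding Rcc1. Snhg3, with which Snora73a shares reads, was at 97.2% and 71.0%, beside 57.0% and 71.6% for Snora73a. Against Snhg3, Snora73a would thus not be the lower one in Alkbh5-deficient fed replicate 1.

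Other short RNAs were also low in these libraries, though not all of them. Small nuclear RNA genes (the annotated class of 151) had 28.4 and 88.0 CPM in WT and Alkbh5-deficient fed replicates 1 against 239 to 456 in the other 6 libraries. Genes of the annotated snoRNA class other than the members had 57.1 and 145 against 248 to 328. Class sums here are CPM of gene counts, without TMM scaling. Small Cajal body RNA genes, which carry the same boxes but stay in Cajal bodies, had 326 and 355 in sum against 325 to 477. That sum was carried by Scarna13 and Scarna2. Scarna2 had 89.6 CPM (TMM-scaled) in WT fed replicate 1, just below the 92.6 to 205 of the other 6, and 121 in Alkbh5-deficient fed replicate 1. Other members were low in both: Scarna6 had 0.997 and 4.62 CPM (TMM-scaled) against 5.95 to 21.8. Scarna10 had 25.8 and 57.7 against 58.6 to 96.9, and Scarna3a 0.166 and 0.298 against 1.13 to 3.75. Ribozyme genes had 1249 and 1742 CPM against 2025 to 5413, and genes of the class misc_RNA 2336 and 5674 against 5714 to 8207. Annotated ribosomal RNA genes had 95.1 in WT fed replicate 1 but 330 in Alkbh5-deficient fed replicate 1, against 226 to 414. The low share of reads outside genes and the low stromal markers fell in the same 2 libraries, and their part in the snoRNA levels was not tested.

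**Figure D3:**
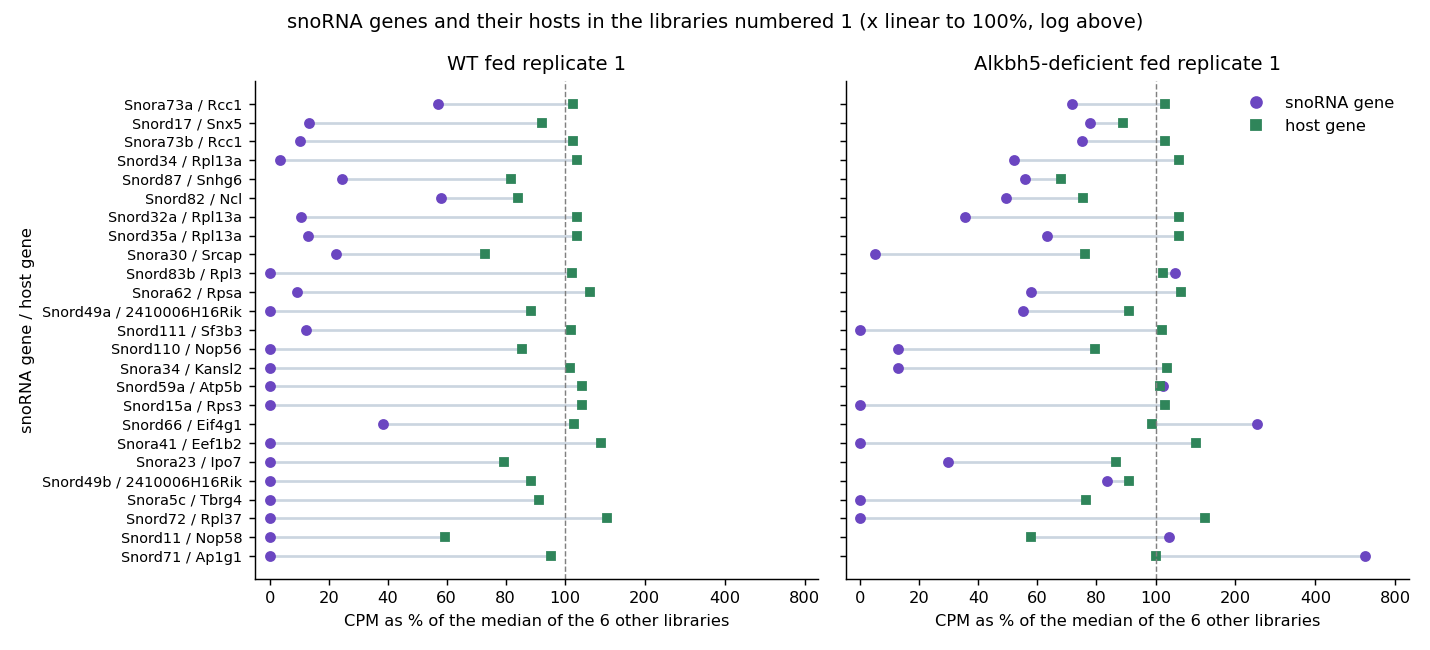
Level of each snoRNA gene (circles) and of its host gene (squares) in WT fed replicate 1 (left) and Alkbh5-deficient fed replicate 1 (right), as a percentage of the median CPM of the 6 other libraries (x axis, linear to 100% and log above), for 25 of the 26 pairs (y axis). The circle lies left of the square in 25 of 25 pairs on the left and in 20 of 25 on the right.

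Between genotypes, no snoRNA gene passed the test. In the 6 fed libraries, 14 members passed the filter on low counts (9 box C/D and 5 box H/ACA), and edgeR's quasi-likelihood test called 0 of them at an adjusted p under 0.05, against 0.0075% of all 13342 genes tested (1 gene). At an unadjusted p under 0.05 it called 0 of 14, against 1.13% of all genes. DESeq2 called 0 of 14, against 0.015% of all genes. The log2 fold changes of Alkbh5-deficient over WT ran from -0.75 to 0.85, with standard errors of 0.37 to 0.86. None of the 14 had fed libraries that did not overlap between genotypes, against 5.62% of all genes tested.

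The members nearest the threshold on the higher side were Snord49a (log2 fold change 0.85, SE 0.83), Snord35a (0.52, SE 0.66) and Snord87 (0.44, SE 0.52). On the lower side they were Snora30 (-0.75, SE 0.83), Snord55 (-0.55, SE 0.82) and Snora73a (-0.24, SE 0.37). All of these differences are close to or below their standard errors in size, and in edgeR all 14 had an adjusted p of 1.00. The values rest on single libraries: without WT fed replicate 1, Snord49a was at 0.30, Snord35a at 0.04 and Snord87 at 0.04, and Snord55 was at -1.10. Without WT fed replicate 3 Snord55 was at -0.08, and without Alkbh5-deficient fed replicate 1 Snora30 was at -0.23. Snora73a changed sign to 0.15 without WT fed replicate 3, where it was highest (23.9 CPM). In the unlabelled pair, which has 1 library a genotype and no test, Snora73a had 12.8 CPM in WT and 11.6 in Alkbh5-deficient cells.

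The median log2 fold change was 0.21 in box C/D (4 of 9 below 0) and -0.40 in box H/ACA (4 of 5 below 0), beside 0.00 over all genes tested. These medians rest on single libraries. Without WT fed replicate 1 they were -0.54 and -0.94, and without WT fed replicate 3 they were 0.68 and 0.21. The box C/D median was also below 0 without Alkbh5-deficient fed replicate 2 (-0.23) or replicate 3 (-0.09). In the libraries numbered alike, the median difference in box C/D was 1.88 for number 1, 0.01 for number 2 and -0.22 for number 3, and in box H/ACA 0.32, -0.10 and -0.82. Without WT fed replicate 1, edgeR gave an unadjusted p under 0.05 to 4 of the 18 members tested, against 2.39% of all genes in the same fit, all 4 lower in Alkbh5-deficient libraries: Snord17 (-0.73, SE 0.27), Snora73b (-0.94, SE 0.39), Snord55 (-1.10, SE 0.46) and Snord13 (-1.72, SE 0.75). Their adjusted p was 0.957, and without both libraries numbered 1 no member had an unadjusted p under 0.05.

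Feeding with s4U also gave no call. Over all 8 libraries 18 members were tested (12 box C/D and 6 box H/ACA), and edgeR called 0, against 0.0281% of 14232 genes (4 genes). At an unadjusted p under 0.05 it called 0 of 18, against 20.2% of all genes. DESeq2 called 0 as well, against 4.7% of all genes, but gave an adjusted p to only 3 of the 18. The range of the 6 fed libraries covered both unlabelled libraries in 16 of the 18, against 46.3% of all genes tested. WT fed replicate 1, lowest or tied lowest in 27 of 32 members, set the lower end of that range for most. The count therefore cannot tell whether s4U had an effect. Each genotype has 1 unlabelled library, so the spread among unlabelled libraries of a genotype is not known.

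The median log2 fold change of fed over unlabelled libraries was -0.17 in box C/D and -0.08 in box H/ACA, beside 0.03 over all genes. Without WT fed replicate 1 both turned positive (0.10 and 0.14), and without both libraries numbered 1 they were 0.23 and 0.28. In the last fit edgeR gave 1 of 18 members, Snord17, an unadjusted p under 0.05 (log2 fold change 0.68, SE 0.25, adjusted p = 0.196), against 22.0% of all genes. The box C/D median was 0.23 without the WT unlabelled library, and the box H/ACA median 0.08 without Alkbh5-deficient fed replicate 1. Snora17 had the lowest p on the lower side, with 6.47 (WT) and 3.37 (Alkbh5-deficient) CPM without s4U, 0.665, 3.11 and 5.84 in WT fed and 0.745, 2.87 and 3.13 in Alkbh5-deficient fed libraries (log2 fold change -0.81, SE 0.62). Every fed library was below the unlabelled one of its genotype, some by little (21 and 25 counts against 31 in Alkbh5-deficient cells). The share of all genes that show this was not counted, and the unadjusted p of Snora17 in edgeR was 0.223. Snord82 (-0.35, SE 0.33) and Snora30 (-0.52, SE 0.72) followed. On the higher side were Snord104 (1.40, SE 1.33), Snora73a (0.26, SE 0.35) and Snord17 (0.37, SE 0.63). In edgeR their adjusted p was at least 0.483.

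The difference of the s4U response between genotypes was tested as an interaction in 22 members. edgeR called 0, against 0.0% of 14988 genes, with 0 at an unadjusted p under 0.05 against 0.16%, and DESeq2 called 0. The interaction values ran from -2.40 to 2.02 on the log2 scale. The fitted scatter of the members was wide in both contrasts: the median biological coefficient of variation was 59.1% in the genotype fit against 23.6% over all genes, and 57.8% against 21.7% in the s4U fit, and every tested member lay above the median of all genes.

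**Figure D4:**
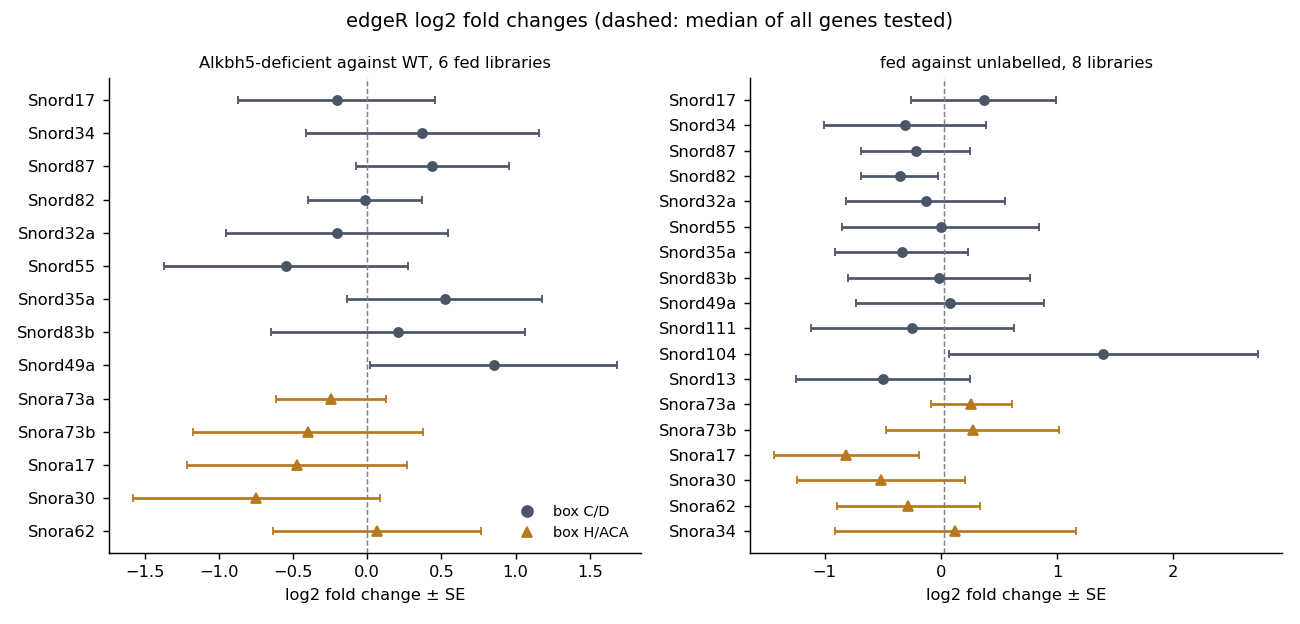
Log2 fold change with its standard error (x axis) of the 14 snoRNA genes tested between genotypes in fed libraries (left) and the 18 tested between fed and unlabelled libraries (right). Dashed lines mark the median of all genes tested (0.00 and 0.03), and no gene passed the threshold.

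Genes that make and guard snoRNAs gave no call in edgeR either. All 4 core proteins of box C/D particles (Fbl, the methyltransferase, with Nop56, Nop58 and Snu13) and all 4 of box H/ACA particles (Dkc1, the pseudouridine synthase, with Gar1, Nhp2 and Nop10) were tested, and 0 passed in either contrast. The same held for 14 of 15 assembly and trafficking genes tested, 8 of 8 processing and decay genes, and 10 (genotype) or 11 (s4U) of 17 other small non-coding RNA genes. In the s4U contrast DESeq2 called 3, Nhp2 and the assembly factor Pih1d1 as higher in fed libraries and Tgs1, which adds methyl groups to the cap of some snoRNAs, as lower. These are 3 of the 41 genes of the 5 lists tested, where DESeq2 called 4.7% of all genes. Tgs1 had 64.3 and 59.4 CPM in the unlabelled libraries and 27.9 to 43.6 in the 6 fed ones (edgeR log2 fold change -0.76, SE 0.18, adjusted p = 0.162). Other genes of these lists were as fully apart. For example, Xpo1 and Mtrex were lower, and Nhp2 and Pih1d1 higher, in every fed library than in both unlabelled ones. The share of all genes with such a separation was not counted. Fbl had 351 CPM in WT fed replicate 3 and 166 to 256 in the other 7 libraries. The 22 tested hosts gave 0 calls in both contrasts, with median log2 fold changes of -0.08 and 0.21.

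Many snoRNAs lie over an exon of another gene, and their reads were set apart in entries that name both genes. There were 57 such entries with 9542 counts, 7069 in box C/D and 2473 in box H/ACA, which is more than the 5038 counts of the members. They name 55 snoRNA genes, of which 49 have no row of their own and 4 are members: Snora73a with 282 shared counts, Snora5c with 33, Snora34 with 2 and Snord111 with 0. All 49 overlap an exon on their own strand. A shared read may stem from the snoRNA or from the spliced or unspliced host, so these counts give no level of the snoRNA alone.

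Snord22 (U22), a snoRNA of small-subunit processing, stood out with 38.0% of shared reads. Its entry with Snhg1 had 468 reads in the WT unlabelled library, 28, 710 and 811 in the WT fed libraries, 472 in its Alkbh5-deficient counterpart and 84, 576 and 481 in the Alkbh5-deficient fed libraries. The 2 libraries numbered 1 were again far below the others, at 6.68% and 18.0% of the median of the other 6. Snhg1 itself was at 52.7% and 52.3%. Snord14c and Snord14d (U14, 97.7% identical), both in Hspa8, had 424 and 383 shared reads and were at 2.04% and 9.50% in WT fed replicate 1 but at 89.7% and 78.8% in Alkbh5-deficient fed replicate 1.

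Over the 17 entries with at least 100 reads, the level in WT fed replicate 1 was 0% to 27.4% of the median of the other 6 libraries (median 7.54%), and 17 of 17 lay below their range. In Alkbh5-deficient fed replicate 1 it was 2.64% to 149% (median 41.9%), with 12 of 17 below the range. Their 13 host genes stood at 38.1% to 146% (median 97.2%) and at 52.3% to 170% (median 109%). The non-coding hosts Snhg4, Snhg1, Gas5, Snhg12 and Snhg3 were at 38.1%, 52.7%, 60.9%, 68.6% and 97.2% in WT fed replicate 1. In Alkbh5-deficient fed replicate 1 they were at 53.3%, 52.3%, 67.1%, 65.2% and 71.0%. Coding and non-coding hosts were not tested against each other.

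**Figure D5:**
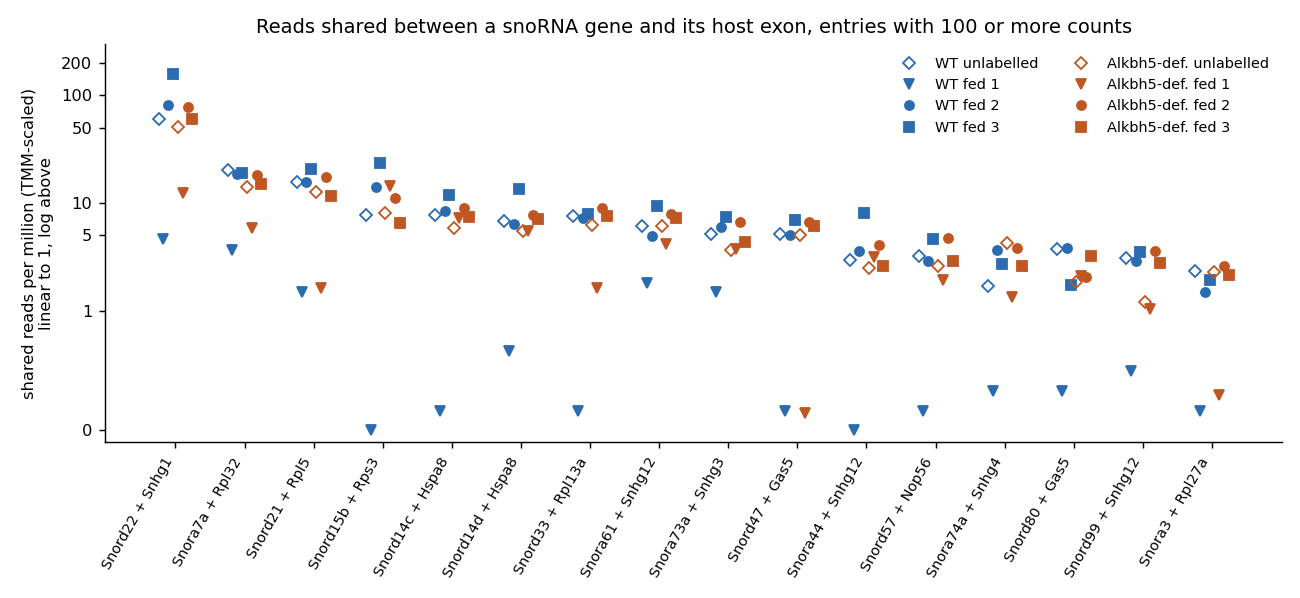
TMM-scaled CPM of shared reads (y axis, linear to 1 and log above) of 16 of the 17 entries with at least 100 reads that name a snoRNA gene and another gene (x axis), in each of the 8 libraries. WT fed replicate 1 (blue triangles) lies below the range of the 6 libraries not numbered 1 in 16 of 16 entries.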

How the data were processed

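RNA was counted in 8 libraries. The deposited files hold whole-number counts per gene, not normalized, made by the authors. Per the submitters' processing notes, cutadapt, HISAT2, STAR, Picard, HTSeq and DESeq2 were used with mm10 and GRCm38. For the step each served, its version and the use of strand, nothing is stated (not given in the sources used here). Each file lists 27710 genes and 928 entries without a single gene, which stayed out of library sizes and tests. Reads in no gene were 37.6% to 52.1% of counts.

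Members and lists were chosen with earlier results of these data known. The test was edgeR 4.0.16 under R 4.3.3 (TMM, default low-count filter, robust quasi-likelihood, Benjamini-Hochberg adjustment at 0.05 over all genes), the genotype contrast on 6 fed libraries, the s4U contrast and interaction on 8. Standard errors are log2 fold changes over the square root of F. DESeq2 1.42.0, other scalings and filters, and fits leaving out libraries were alternatives. The scripts were tested on simulated data. Named genes were the 8 most abundant of each class, up to 3 per direction with the smallest p, and the processing snoRNAs. All 53 symbols matched GENCODE M21. Copies were searched with BLAST+ 2.17.0, and 7 members have one of at least 90% identity elsewhere.

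Libraries with the same number deviated together (correlations of 0.68, 0.29 and 0.19, each over 0.1). The numbers were therefore taken to pair the samples in an alternative fit, while the reported genotype test was unpaired. Differently numbered pairs ran from -0.56 to 0.35, and those of numbers 2 and 3 (0.35 and 0.35) were above the same-numbered ones. A pairing was thus seen for number 1 alone. Fed replicates of a genotype differed by more than sampling noise (chi-square per gene at least 7.92). Some genes are not reported here by name, and 1 pair and 1 entry that need them are left out of the plots.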

Additional observations from a re-analysis of the deposited data

Results flagged for a closer look

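Reads assigned jointly to a snoRNA gene and another gene, which enter no test here, came to 9542 over the 8 libraries. They were singled out as signal outside the tested gene counts. As CPM of gene counts they were 16.2 in WT fed replicate 1, 70.1 in Alkbh5-deficient fed replicate 1 and between 158 and 294 in the other 6 libraries.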

How the results depend on the processing

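No snoRNA gene was called in the genotype, s4U or interaction contrast under any alternative that was run, DESeq2 and leaving out each library included. With the replicate block in the genotype fit, 0 of 17 tested members were called and the medians were 0.12 in box C/D and -0.29 in box H/ACA, so pairing changed no call. DESeq2 called 3 of 41 machinery and small RNA genes in the s4U contrast (4.7% of all genes) where edgeR called 0. Leaving out each library in turn, the genotype medians ranged from -0.54 to 0.68 in box C/D and from -0.94 to 0.21 in box H/ACA, and the s4U medians from -0.41 to 0.23 and from -0.57 to 0.14. Snora73a ranged from -0.55 to 0.15 between genotypes and changed sign without WT fed replicate 3 (0.15). The additive fit over 8 libraries put the box C/D genotype median at -0.05. Leaving out both libraries numbered 1 was chosen after seeing the data, and gave genotype medians of -0.45 and -0.61. The s4U medians within WT libraries were -0.38 and 0.08, and within Alkbh5-deficient libraries 0.29 and -0.30. The interaction could not be fitted without either unlabelled library. Depth limits most members, 13 of which had under 50 counts in all.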
